A study of Mus musculus with 74 samples.

Results

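The 8 genes described here encode receptors and enzymes of natriuretic peptide and cyclic GMP signaling. They were chosen by gene symbol: the natriuretic peptide receptors Npr1, Npr2 and Npr3, the soluble guanylyl cyclase subunits Gucy1a1 and Gucy1b1, the phosphodiesterases Pde3a and Pde5a, and the cyclic GMP-dependent protein kinase Prkg1. In the BALB and SEAGN tables the cyclase subunits carry their older names Gucy1a3 and Gucy1b3, and each was counted as 1 gene. All 8 had a value in every table analysed here, among 17270 to 19320 genes per table and among 12713 genes that occur once by symbol in all 5 tables.

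Bulk RNA sequencing compared matched primary tumors (PT) and lung metastases (Lung met) of mouse mammary cancer models, 74 samples from 37 animals. Her2 (MMTV-Her2, 6 PTs and 6 Lung mets), C3Tag (C3TAg, 7 and 7) and Myc (MMTV-Myc, 6 and 6) share the inbred FVB background and differ in the oncogene. In the PyMT-F1 crosses, FVB males carrying MMTV-PyMT were bred to females of another strain, labelled AKR/J, SEA/GNJ and BALB/NJ, and tumor-bearing F1 females were used, with 6 PTs and 6 Lung mets each. The MMTV promoter drives Her2, Myc and PyMT (polyoma middle T antigen) mainly in mammary epithelium, and C3Tag mice express the SV40 T antigen from the C3(1) promoter. All the mice carried a transgenic oncogene, and no normal mammary gland or normal lung was among the samples. Per the labels, tissue was taken at humane endpoints, while the study's methods state that in the driver models tumors of animals with a single lesion were resected before the animals were aged further. All primary tumors of a PyMT-F1 animal were combined, and whole metastases were used for RNA.

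What was analysed are the authors' normalized mean of each gene in PT and in Lung met for Her2, C3Tag, BALB, SEAGN and a table deposited under AKR. The strain behind the last is not settled, since the sources used here do not describe one and the same strain for it, so it is called AKR-named, and counts and medians over the tables are also given without it. The means carry no SD and no n, no value of a single sample was analysed, and the depth of each sample is unknown. Therefore whether groups overlap is unknown, no difference was tested, and every log2 ratio (Lung met mean over PT mean) is a description that is set against the same ratio of all genes in its table. For Myc no group mean was analysed here. Each table was normalized separately, and the median gene had a mean of 122 to 131 in the PTs of BALB and SEAGN against 354 to 470 in the PTs of the other tables, so levels are placed by the share of genes that lay lower in the same tissue. Of the 36 PyMT-F1 samples, 23 carry a genotype label of another strain than their sample name, and 16 a source label of the other tissue; groups follow the sample names.

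Atrial and B-type natriuretic peptides bind Npr1, and C-type natriuretic peptide binds Npr2. Both receptors are guanylyl cyclases that make cyclic GMP inside the cell, whereas Npr3 lacks a cyclase domain and is known for clearing the peptides. Soluble guanylyl cyclase, a heterodimer of an alpha and a beta subunit, makes cyclic GMP in response to nitric oxide. Pde5a breaks cyclic GMP down, Pde3a hydrolyses cyclic AMP and is inhibited by cyclic GMP, and Prkg1 passes the signal on by phosphorylating proteins of smooth muscle and other cells. In the lung the pathway is known for relaxing pulmonary vessels, and Pde5a is the target of drugs for pulmonary hypertension.

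By the GENCODE M21 annotation of GRCm38, 4 of the 8 genes lie on chromosome 3. Gucy1b1 (chr3:82032006-82074689) and Gucy1a1 (chr3:82092427-82145789) are neighbours on the minus strand, separated by 17.7 kb, and Npr1 (chr3:90450591-90465866, minus strand) and Pde5a (chr3:122728947-122859374, plus strand) lie farther along. Npr2 is at chr4:43631935-43651244 (plus), Pde3a at chr6:141249269-141507448 (plus), Npr3 at chr15:11839896-11907287 (minus) and Prkg1 at chr19:30564489-31765033 (minus). All 8 are protein-coding. RefSeq promoter windows of 300 bases on GRCm38.p6 were matched for 7 of the 8 genes by symbol, without Pde3a. The windows of the cyclase pair are shown 5′ to 3′ because these neighbouring genes encode the subunits of 1 enzyme. The first is the more upstream of 2 Gucy1a1 windows, at chr3:82145601-82145900, and the second is at chr3:82074662-82074961, both on the minus strand. Capitals mark matches, on either strand, to any of 5 motifs. They were GGGCGG, known as the core of sites for Sp1 and related factors, and CCAAT, which nuclear factor Y binds. AGGAAG, a form of the core that ETS factors bind, was searched as well. The others were the CArG box of serum response factor and TATAAA, which lies upstream of some start sites.
Gucy1a1: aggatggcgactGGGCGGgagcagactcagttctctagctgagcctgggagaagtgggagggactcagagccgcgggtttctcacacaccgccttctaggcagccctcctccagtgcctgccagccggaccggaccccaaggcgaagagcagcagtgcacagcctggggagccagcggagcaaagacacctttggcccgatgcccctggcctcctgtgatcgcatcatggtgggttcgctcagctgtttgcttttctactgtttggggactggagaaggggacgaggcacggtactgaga
Gucy1b1: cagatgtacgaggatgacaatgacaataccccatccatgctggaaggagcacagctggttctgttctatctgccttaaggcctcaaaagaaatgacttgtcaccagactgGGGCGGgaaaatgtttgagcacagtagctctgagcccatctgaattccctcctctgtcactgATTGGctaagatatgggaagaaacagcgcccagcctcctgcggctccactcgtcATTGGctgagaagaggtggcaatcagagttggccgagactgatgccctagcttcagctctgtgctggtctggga
Each window held 1 GGGCGG, which 35.7% of 32851 promoter windows held. The Gucy1b1 window also held 2 CCAAT matches, both written as ATTGG on the strand shown, and 37.4% of all windows held at least 1. Neither of the shown windows held TATAAA (13.6% of all windows), AGGAAG (35.4%) or a CArG box (1.63%). The other Gucy1a1 window, not shown, held 1 AGGAAG and none of the other motifs, GGGCGG included. The G and C content was 62.3% for Gucy1a1 and 52.3% for Gucy1b1, beside a median of 52.7% over all windows. A CArG box can begin with CCAAT, end with ATTGG or hold TATAAA, and none of the other motifs contains another. A match is a description of the sequence only.

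Counted at 2-fold, 3 of the 8 genes were higher in Lung mets of Her2 (2.38% of all genes were), 3 of 8 in C3Tag (7.42%), 4 of 8 in BALB (2.26%), 6 of 8 in SEAGN (2.86%) and 7 of 8 in AKR-named (7.31%). None of the 8 was 2-fold lower in any of the 5 tables, beside 1.43% of all genes in Her2, 1.70% in C3Tag, 2.40% in BALB, 3.22% in SEAGN and 1.73% in AKR-named. The median log2 ratio of the 8 was 0.92 in Her2, 0.82 in C3Tag, 1.00 in BALB, 1.26 in SEAGN and 1.89 in AKR-named, where the median of all genes lay between -0.0013 and 0.030. Gucy1a1 alone was at least 2-fold higher in each of the 5 tables, as were 69 of 12713 genes (0.543%). It remained the only member of which this held without AKR-named, but the share of all genes without that table was not computed. For comparison, 11 of the 12713 genes (0.0865%) were at least 2-fold lower in each table, none of them a member. Since the counts rest on group means, they say nothing of how many animals showed a direction.

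**Figure D1:**
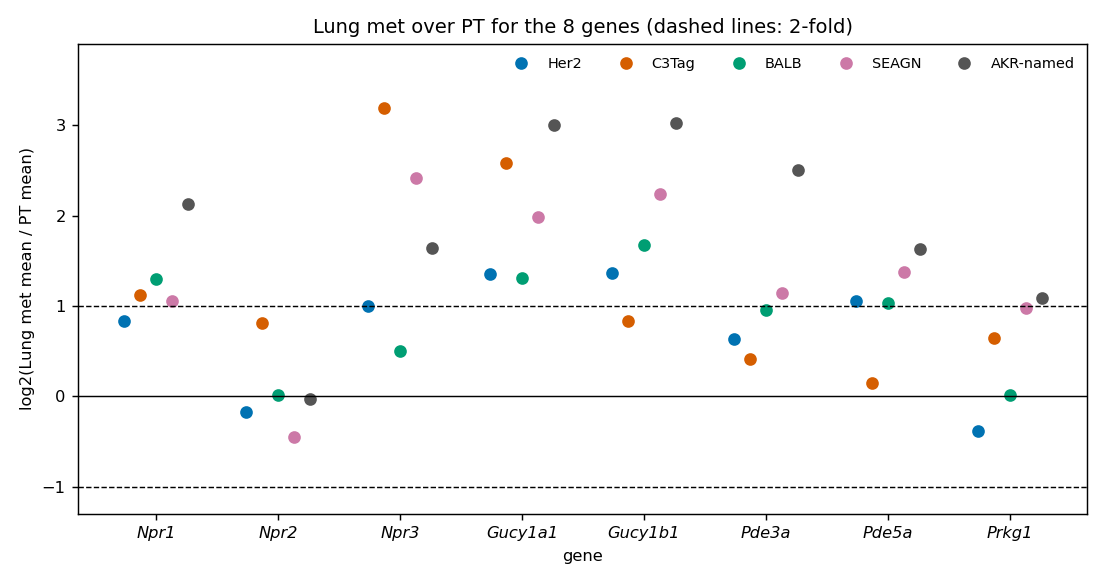
Log2 ratio of the Lung met mean over the PT mean (y axis) for each of the 8 genes (x axis), with 1 point per table and dashed lines at 2-fold. Gucy1a1 lies above the upper line in all 5 tables, while Npr2 lies between the lines in all 5.

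The soluble guanylyl cyclase subunits had median log2 ratios over the 5 tables of 1.98 (Gucy1a1) and 1.67 (Gucy1b1), followed by 1.64 for Npr3. Without AKR-named the order was Npr3 (1.71), Gucy1a1 (1.67) and Gucy1b1 (1.52), and the others were Npr1 (1.09), Pde5a (1.05), Pde3a (0.79), Prkg1 (0.33) and Npr2 (-0.080). The Gucy1a1 mean was 110 in PT and 281 in Lung met of Her2, and 63.5 and 380 in C3Tag. In the crosses it was 42.2 and 104 in BALB, 34.8 and 138 in SEAGN, and 59.1 and 475 in AKR-named. The Lung met mean was thus the higher one in every table, by 2.47-fold in BALB up to 8.04-fold in AKR-named, and at most 1.41% of the genes of a table had a higher ratio. Relative to other genes of the same tissue Gucy1a1 was a gene of modest level in PT, where 24.7% to 31.7% of genes lay lower, and moved to a place above 42.7% to 52.2% of genes in Lung met.

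Gucy1b1, the subunit that holds the heme to which nitric oxide binds, had means of 94.5 in PT and 243 in Lung met of Her2, and of 105 and 186 in C3Tag. Its means were 16.4 and 52.4 in BALB, 14.3 and 67.7 in SEAGN, and 93.5 and 759 in AKR-named. The Lung met mean was again higher in all 5 tables, past 2-fold in 4 of them, with C3Tag at 1.78-fold as the exception. In 4 tables both subunits shifted by a like amount: their log2 ratios (Gucy1a1 minus Gucy1b1) differed by -0.0049 in Her2, -0.014 in AKR-named, -0.26 in SEAGN and -0.37 in BALB. In C3Tag they differed by 1.75, that is, the Lung met over PT ratio of Gucy1a1 was 3.37 times that of Gucy1b1. The C3Tag PTs had placed Gucy1b1 above 32.4% and Gucy1a1 above 26.2% of genes, and the C3Tag Lung mets placed them above 38.4% and 49.6%. Whether this gap between the subunits exceeds the spread between animals was not tested.

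**Figure D2:**
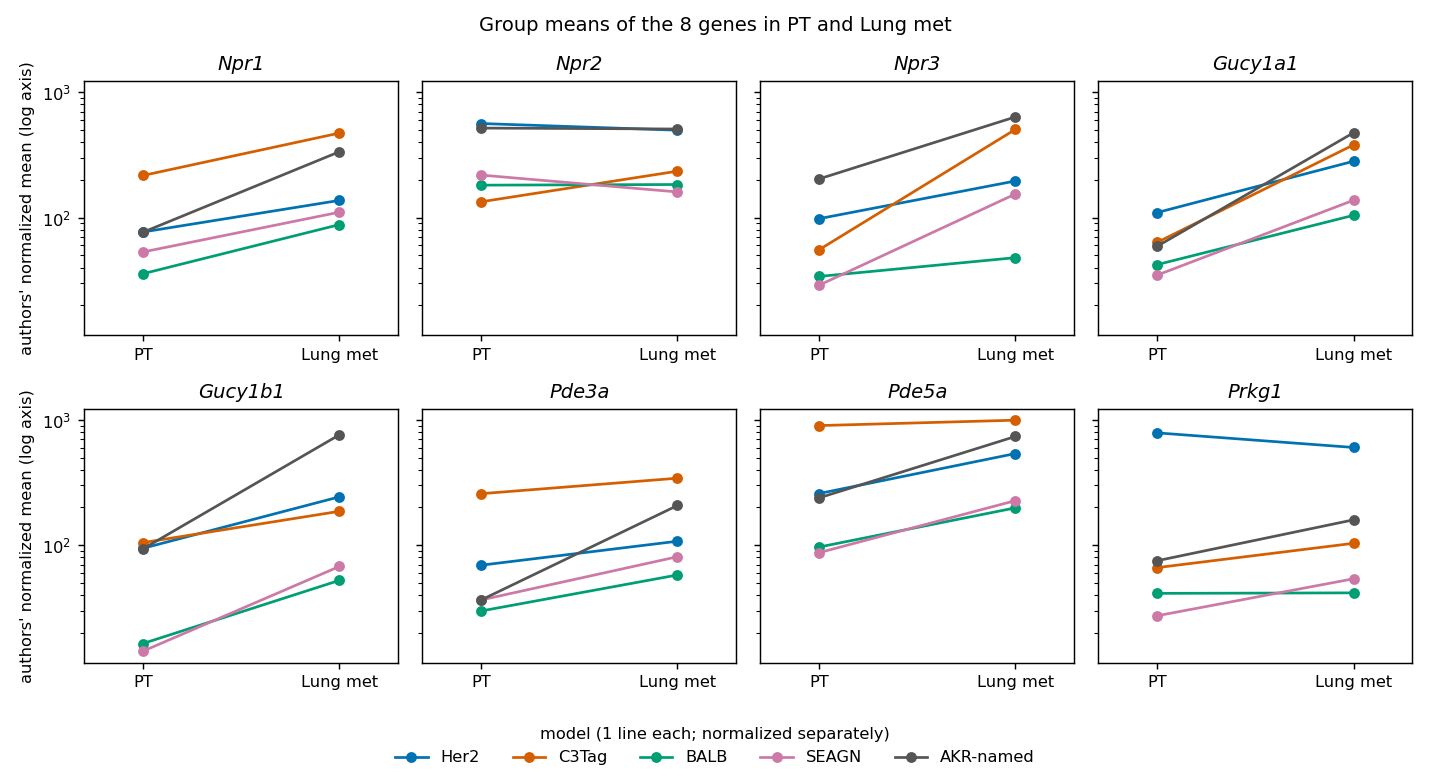
Authors' normalized mean (y axis, log scale) in PT and Lung met (x axis) for each of the 8 genes, with 1 line per table and no error, since the means were deposited without one. The Gucy1a1 lines all climb by at least 2.47-fold, whereas the Pde5a line of C3Tag (899 to 993) and the Npr2 lines of BALB and AKR-named run nearly level.

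Npr1, the receptor for atrial and B-type natriuretic peptide, had means of 76.8 in PT and 137 in Lung met of Her2, and of 217 and 472 in C3Tag. The means were 35.7 and 88.0 in BALB, 53.2 and 110 in SEAGN, and 76.4 and 335 in AKR-named. Npr1 was higher in Lung mets of every table, at 1.79-fold in Her2 and past 2-fold in the other 4, with 4.38-fold in AKR-named as the highest. Its log2 ratio had the smallest range but 1 of the 8 genes, from 0.84 to 2.13, and between 1.27% and 6.27% of genes had a higher ratio.

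Npr2, the receptor for C-type natriuretic peptide, did not follow Npr1. Its means were 563 in PT and 498 in Lung met of Her2, and 134 and 235 in C3Tag. They were 181 and 184 in BALB, 218 and 160 in SEAGN, and 518 and 509 in AKR-named. No table put Npr2 past 2-fold in either direction, and the Lung met mean was the lower one in 3 of 5 tables. Its log2 ratio ran from -0.45 in SEAGN to 0.81 in C3Tag, and 9.76% to 88.1% of genes had a higher ratio. The Npr1 ratio exceeded that of Npr2 in every table, by 1.24 times in C3Tag, 2.02 in Her2, 2.44 in BALB, 2.83 in SEAGN and 4.46 in AKR-named.

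Npr3, the clearance receptor, varied most between models. Its means were 98.1 in PT and 196 in Lung met of Her2, and 55.4 and 506 in C3Tag. They were 34.0 and 47.9 in BALB, 28.9 and 154 in SEAGN, and 204 and 636 in AKR-named. The largest fold of any of the 8 genes in C3Tag (9.13-fold) and in SEAGN (5.34-fold) was thus that of Npr3, with only 0.595% and 0.478% of genes having a higher ratio. Npr3 was instead the third lowest of the 8 in BALB, at 1.41-fold. In Her2 it lay just short of the 2-fold line, at 1.998-fold. Its log2 range over the 5 tables was 2.69, wider than that of 98.3% of the 12713 genes, whose median range was 0.53. The Npr3 ratio was 4.19 times that of Npr1 in C3Tag and 2.57 times in SEAGN, 1.12 times in Her2, and below it in BALB (0.573 times) and AKR-named (0.712 times).

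Among the phosphodiesterases, Pde5a had means of 258 in PT and 539 in Lung met of Her2, and of 899 and 993 in C3Tag. The means were 96.7 and 199 in BALB, 87.2 and 227 in SEAGN, and 239 and 737 in AKR-named. Pde5a was past 2-fold higher in 4 of 5 tables, by 2.05-fold to 3.09-fold, and near level in C3Tag, at 1.10-fold. C3Tag was also the model whose PTs already placed Pde5a high, above 68.9% of genes against 39.6% to 44.3% in the PTs of the other 4 tables. In Lung met the places were closer, above 53.7% to 69.6% of genes.

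Pde3a had means of 69.3 in PT and 108 in Lung met of Her2, and of 257 and 342 in C3Tag. The means were 29.9 and 57.9 in BALB, 36.6 and 80.9 in SEAGN, and 36.5 and 207 in AKR-named. It was higher in the Lung mets of all 5 tables, but past 2-fold only in SEAGN (2.21-fold) and AKR-named (5.67-fold), with BALB just short of it at 1.94-fold. As for Pde5a, C3Tag had the lowest ratio of the 5 tables (1.33-fold) and the highest place in PT, above 44.8% of genes against 19.8% to 28.8% elsewhere. The ratios of Pde3a and Pde5a (Pde3a minus Pde5a, log2) differed by -0.42 in Her2, 0.27 in C3Tag, -0.084 in BALB, -0.23 in SEAGN and 0.88 in AKR-named.

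Prkg1, the kinase that cyclic GMP activates, had means of 787 in PT and 602 in Lung met of Her2, and of 66.3 and 104 in C3Tag. The means were 41.3 and 41.7 in BALB, 27.4 and 54.0 in SEAGN, and 75.2 and 159 in AKR-named. It passed 2-fold only in AKR-named (2.12-fold), lay just short of it in SEAGN (1.97-fold), and was the lower in Lung mets of Her2, where the PT mean was 1.31 times that of Lung met. Her2 PTs also placed Prkg1 above 61.6% of genes, against 24.7% to 30.0% in the PTs of the other tables. The Gucy1a1 ratio was between 2.01 times (SEAGN) and 3.83 times (C3Tag) that of Prkg1, so that the ratios of a cyclic GMP producing subunit and of the kinase downstream were unequal in each table.

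**Figure D3:**
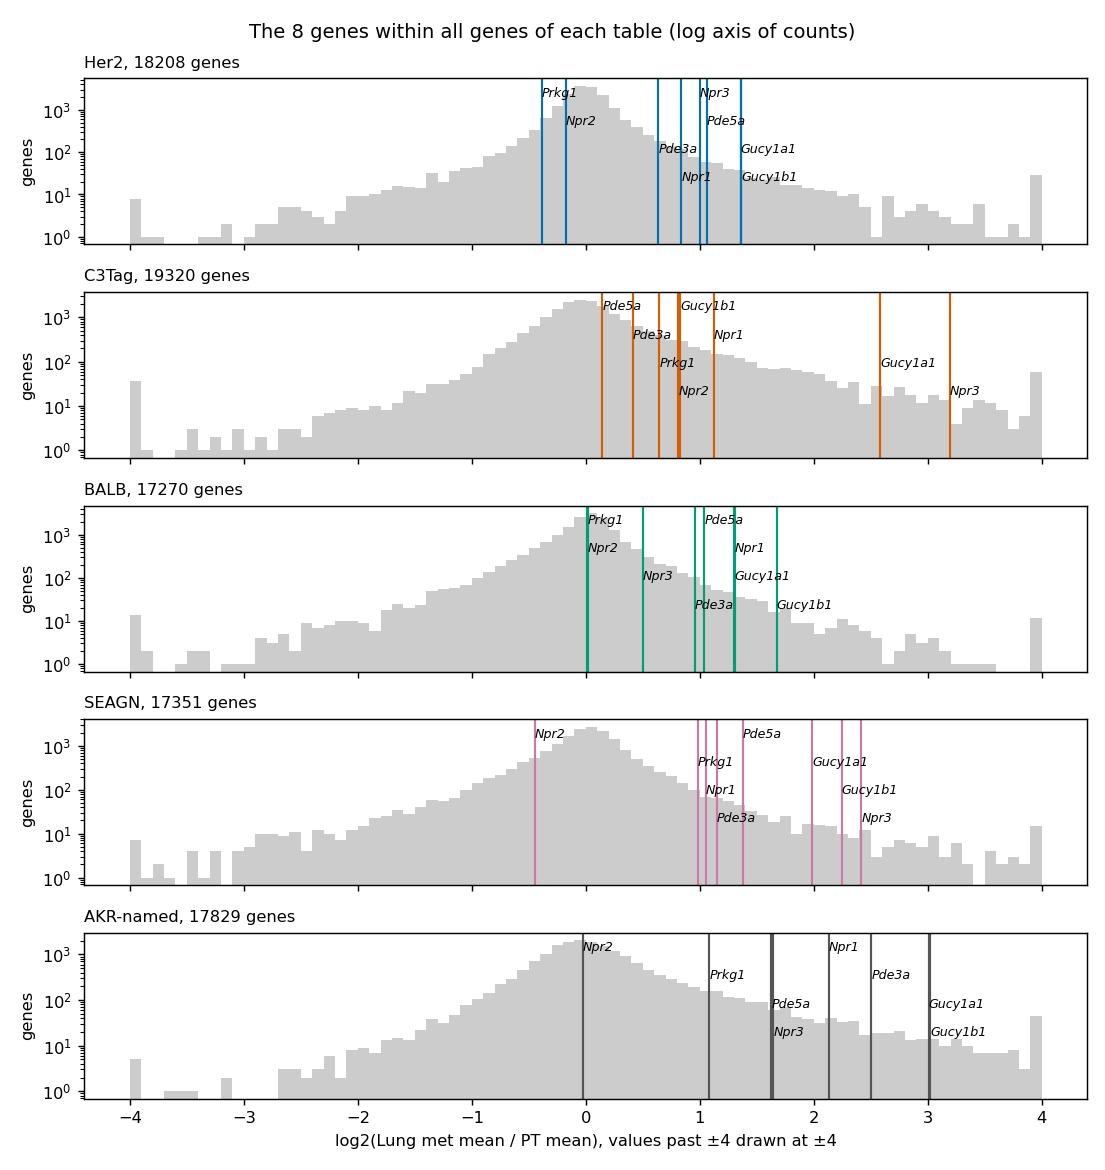
Number of genes (y axis, log scale) by log2 ratio of the Lung met mean over the PT mean (x axis) in each of the 5 tables, with a vertical line for each of the 8 genes. Right of 0 lie 6 of the 8 in Her2 (49.7% of all genes do), 8 in C3Tag (51.2%) and 8 in BALB (55.3%). In SEAGN (52.6%) and AKR-named (50.8%) 7 do. Left of 0 are Npr2 and Prkg1 in Her2, and Npr2 in SEAGN and AKR-named. Npr2 lies near the middle of the distribution in BALB and AKR-named, where 52.2% and 53.5% of genes had a higher ratio. Prkg1 does so in BALB (52.8%).

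The ligands of these receptors were for the most part not among the measured genes. Of 10 genes for peptides and their processing, 3 or 4 had means in a table. Past 2-fold higher were 1 in Her2 (2.38% of all genes were), 0 in C3Tag (7.42%), 0 in BALB (2.26%), 1 in SEAGN (2.86%) and 2 in AKR-named (7.31%). Nppa, which encodes atrial natriuretic peptide, had no mean. Nppb, for the B-type peptide, had means only in C3Tag, at 38.8 in PT and 39.1 in Lung met. Nppc, for the C-type peptide, had them only in AKR-named, at 7.02 and 42.1. Corin, the protease that activates pro-atrial natriuretic peptide, was 3.13-fold higher in Lung mets of Her2 and 8.07-fold higher in SEAGN, from PT means of just 4.24 and 5.17. Mme (neprilysin, which degrades the peptides) had the highest median log2 ratio of the better measured genes in the list, 0.19, and passed 2-fold only in AKR-named (2.24-fold). Ide, another peptidase that degrades them, had the lowest, 0.034, with ratios between -0.058 and 0.12. Without AKR-named Furin, a proprotein convertase, had the highest median (0.22, beside 0.19 for Mme) and Ide still the lowest (0.059).

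On the nitric oxide side, 7 of 8 listed genes had means in every table. Past 2-fold higher were 0 in Her2 (2.38% of all genes were), 2 in C3Tag (7.42%), 0 in BALB (2.26%), 2 in SEAGN (2.86%) and 3 in AKR-named (7.31%). Past 2-fold lower was 1 in BALB (2.40% of all genes were) and 1 in SEAGN (3.22%). Nostrin, which binds endothelial nitric oxide synthase and directs its traffic, had the highest median log2 ratio, 1.87. Its fold was 1.87 in Her2, 3.65 in C3Tag, 1.40 in BALB, 3.91 in SEAGN and 4.96 in AKR-named. Nos3, the endothelial synthase itself, did not pass 2-fold in any table, with log2 ratios from -0.67 in SEAGN to 0.89 in C3Tag. Ddah1, which breaks down an inhibitor of nitric oxide synthases, had the lowest median, -0.81, and its PT mean was 3.55 times the Lung met mean in BALB and 3.47 times in SEAGN. Its log2 ratio was -0.81 in C3Tag, -0.41 in AKR-named and, the other way, 0.55 in Her2. Without AKR-named the medians were 1.38 for Nostrin and -1.303 for Ddah1.

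Other guanylyl cyclases were measured in at most 2 of 7 cases per table. Gucy1a2, the alternative alpha subunit, had means in 4 tables with log2 ratios from -0.34 to 0.53, so it did not pass 2-fold where Gucy1a1 did. Of the 14 other cyclic nucleotide phosphodiesterases, 8 to 10 had means in a table. In C3Tag 1 was past 2-fold higher (7.42% of all genes were) and in SEAGN 1 (2.86%). None was in Her2 (2.38%), BALB (2.26%) or AKR-named (7.31%). Lower by 2-fold was 1 in C3Tag (1.70% of all genes were) and 1 in BALB (2.40%), with none in the other tables. Pde2a, which cyclic GMP stimulates, had the highest median (0.59, over 3 tables) and Pde10a the lowest (-0.45). Without AKR-named that of Pde2a was 0.080 over 2 tables, and Pde1a had the highest among genes measured in at least 3 tables (0.65), with Pde10a at -0.62. The cyclic nucleotide exporters Abcc4 and Abcc5 were past 2-fold higher in C3Tag, by 4.90-fold and 4.71-fold (7.42% of all genes were). Abcc4 was also past it in AKR-named, by 2.56-fold (7.31% of all genes were). In Her2, BALB and SEAGN both stayed between log2 ratios of -0.23 and 0.57.

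The list of the kinase and its targets held 16 genes, of which 8 to 11 had means in a table, and the median log2 ratio lay between -0.28 in BALB and 0.15 in C3Tag. Past 2-fold higher were 0 in Her2 (2.38% of all genes were), 2 in C3Tag (7.42%), 0 in BALB (2.26%), 0 in SEAGN (2.86%) and 2 in AKR-named (7.31%). Past 2-fold lower was 1 in BALB (2.40% of all genes were) and 1 in SEAGN (3.22%). Trpc6, a calcium channel that the kinase inhibits, had the highest median, 0.84, with folds of 1.49 in SEAGN to 4.91 in AKR-named. Kcnma1, the large-conductance potassium channel that the kinase opens in smooth muscle, had the lowest, -0.95. It was 2.75-fold higher in Lung mets of C3Tag, while its PT mean was 2.49 times the Lung met mean in BALB and 2.02 times in SEAGN. Vasp, a classical kinase substrate, had log2 ratios from -0.0072 to 0.88 and did not pass 2-fold. Without AKR-named the medians were 0.77 for Trpc6 and -1.01 for Kcnma1.

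**Figure D4:**
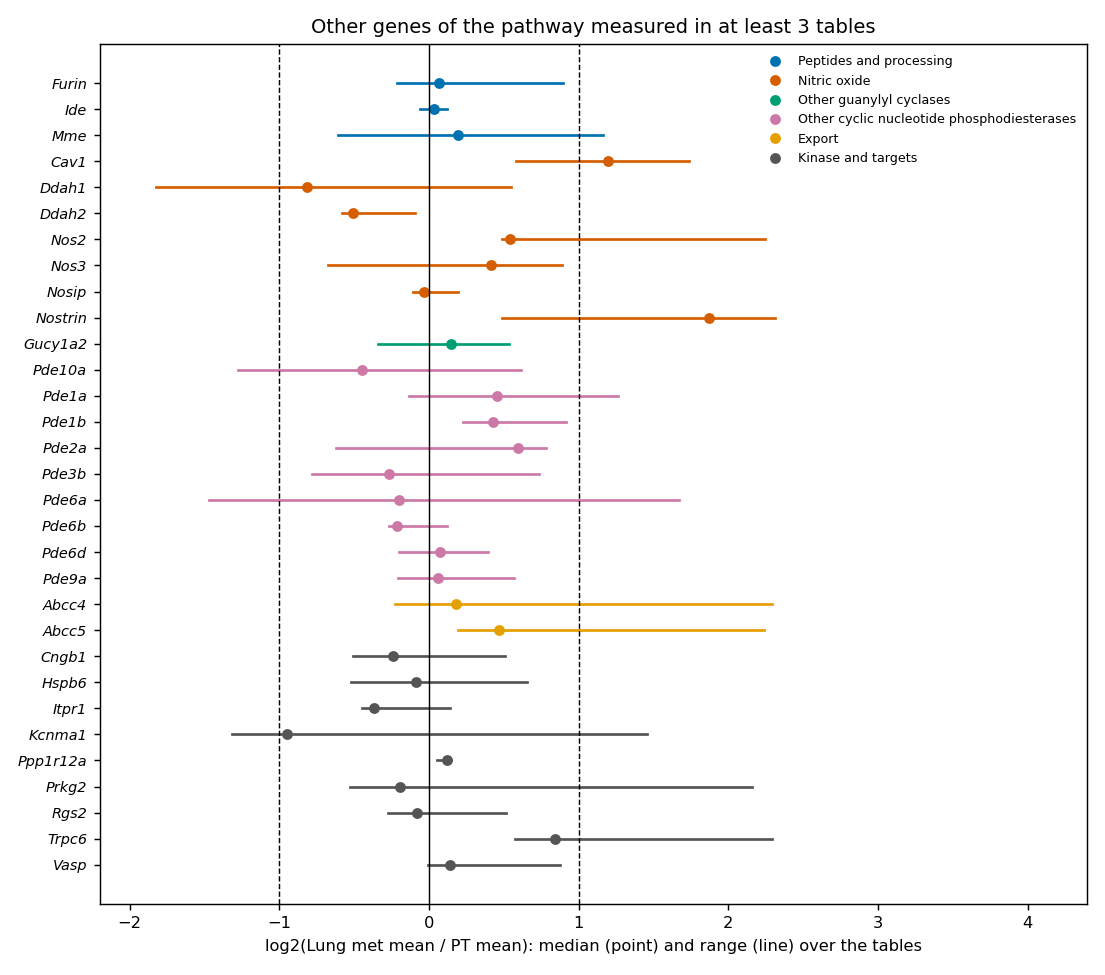
Median (point) and range (line) over the tables of the log2 ratio of the Lung met mean over the PT mean (x axis) for other genes of the pathway measured in at least 3 tables (y axis), coloured by list, with dashed lines at 2-fold. Nostrin has the highest median (1.87) and Kcnma1 the lowest (-0.95), while without AKR-named these were Nostrin (1.38) and Ddah1 (-1.303).

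Bulk tissue holds tumor cells and surrounding cells, and fewer cells of a type cannot be told apart from less RNA per cell. The lists of lung cell markers had medians above 0 in every table, as the 8 genes did, and their part in the results was not tested. The order of the tables varied by list. The median log2 ratio of the 8 genes was highest in AKR-named (1.89). Endothelial (1.52), lung capillary (2.32), alveolar type 1 (3.92) and lung fibroblast medians (1.21) were highest there too. The median of the 8 genes was lowest in C3Tag (0.82), where that of alveolar type 2 markers was highest (6.29). No gene was listed at 0, and a marker without a mean was not analysed. All 12 endothelial markers were measured in every table. Their summed mean went from 5442 in PT to 8331 in Lung met of Her2, 6611 to 12698 in C3Tag, 1692.9 to 2416 in BALB, 1860 to 2655 in SEAGN and 3709 to 11488 in AKR-named. Past 2-fold higher were 1 of 12 in Her2 (2.38% of all genes were), 8 in C3Tag (7.42%), 0 in BALB (2.26%), 0 in SEAGN (2.86%) and 11 in AKR-named (7.31%). Their medians on the log2 scale were 0.57, 1.19, 0.56, 0.50 and 1.52 in the same order. Gucy1a1 lay above that median in every table, and Gucy1b1 lay above it in all but C3Tag, where it was 0.83. Npr2 lay below it in all 5.

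Of 6 lung capillary markers 4 or 5 were measured, without Car4, and their median log2 ratio was 0.82 in BALB to 2.32 in AKR-named. Foxf1 had the highest values of that list, from 3.95 in C3Tag to 4.71 in AKR-named over the 4 tables with its means. Ednrb lay the other way in 4 tables, at -0.44 in Her2, -0.56 in C3Tag, -1.71 in BALB and -2.15 in SEAGN, and was at 0.047 in AKR-named. The 6 alveolar type 1 markers were all measured, with medians of 2.89 in Her2 to 3.92 in AKR-named. Their summed mean went from 57984 to 56572 in Her2 and from 3596 to 2999 in BALB, sums in which abundant genes weigh most, and it was higher in Lung met in the other 3 tables. Of 8 alveolar type 2 markers 5 were measured, without Sftpc, Sftpb and Sftpa1, with medians of 1.26 in Her2 to 6.29 in C3Tag. Their summed mean went from 8731 to 13413 in Her2, 1979 to 40756 in C3Tag, 2382 to 5732 in BALB, 2090 to 7899 in SEAGN and 5856 to 26106 in AKR-named.

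Smooth muscle and pericyte markers, the cells in which Prkg1 and soluble guanylyl cyclase are best known, moved less. Of 12 such markers, 12 were measured in Her2, C3Tag and BALB and 9 in SEAGN and AKR-named, where Acta2, Myh11 and Cnn1 had no mean. Their median log2 ratio was 0.35 in Her2, 0.034 in C3Tag, -0.25 in BALB, 0.32 in SEAGN and 0.39 in AKR-named. Past 2-fold higher were 0, 1, 1, 0 and 2 of them in the same order, beside 2.38%, 7.42%, 2.26%, 2.86% and 7.31% of all genes. Higd1b, a pericyte marker, was among these markers in C3Tag, BALB and AKR-named. Past 2-fold lower was 1 in BALB, Des at -1.65, and none in the other tables. Des lay the other way in AKR-named, at 3.11, and with Higd1b made up the 2 markers past 2-fold higher there. Rgs5 lay below 0 in all 5 tables, from -0.77 in SEAGN to -0.0090 in Her2. The summed mean went from 9965 to 11015 in Her2, 8220 to 7929 in C3Tag, 3397 to 3041 in BALB, 2557 to 2285 in SEAGN and 5794 to 7440 in AKR-named.

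Platelet markers, a cell in which Pde5a, Pde3a and soluble guanylyl cyclase are abundant, had median log2 ratios of -0.19 in Her2, 1.31 in C3Tag, -0.041 in BALB, -0.26 in SEAGN and 0.85 in AKR-named, over 3 to 5 of 6 markers. For cardiac muscle 2 of 7 markers had means, with medians of -1.02 in C3Tag to 0.17 in BALB. Collagen fibroblast markers had medians below 0, from -2.37 in SEAGN to -0.75 in C3Tag over all 8. Of them Pdgfra lay the other way in every table, at 0.44 in SEAGN to 0.94 in AKR-named, and Dcn did so in C3Tag (0.75). Lung fibroblast markers had medians of 0.32 in Her2 to 1.21 in AKR-named over 3 to 5 of 6. Mammary luminal markers, of which 7 to 9 of 9 were measured, cannot check the labelled tissue, since Lung mets also come from mammary tumors. Their medians lay between -0.61 in C3Tag and 0.21 in SEAGN. The summed mean was 154969 in PT and 255784 in Lung met of Her2, so that both tissues held them. Csn2 alone made up 56712 and 156724 of these sums. Myoepithelial medians ran from -1.09 in C3Tag to 1.12 in Her2, and those of macrophages from -0.36 in Her2 to 0.43 in C3Tag. Skeletal muscle markers were lower in 4 tables (medians of -5.85 to -3.25) and higher in AKR-named (1.72). Of 5 such markers 2 were measured in Her2 and C3Tag, only Acta1 in BALB and SEAGN, and 3 in AKR-named. Their means in AKR-named were low, with those of Acta1 (7.60 in PT and 25.1 in Lung met) the highest. Of the adipocyte list only Pparg was measured, with log2 ratios of 0.088 in SEAGN to 1.90 in C3Tag.

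**Figure D5:**
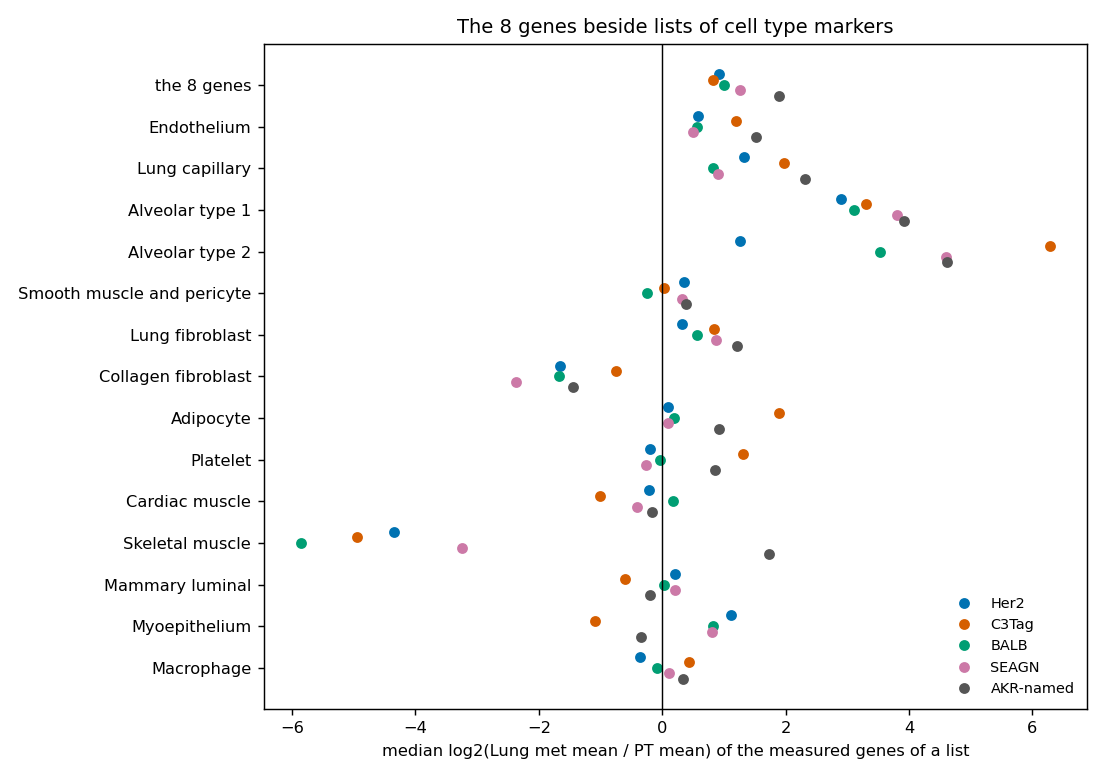
Median log2 ratio of the Lung met mean over the PT mean (x axis) of the 8 genes and of each list of cell type markers (y axis), with 1 point per table. The alveolar and lung capillary lists lie right of 0 in every table (alveolar type 1 at 2.89 to 3.92), collagen fibroblast markers left of it, and smooth muscle and pericyte markers within 0.39 of it.

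The genes whose ratios over the 5 tables were nearest to those of a member were sought among 12173 others with a mean over both tissues of at least 10 in every table, by the root mean square (RMS) difference of the log2 ratio. The measure uses 5 points that each hold all animals of a model. BC028528 (RMS of 0.14), Gem (0.20) and Mgp (0.23) were nearest to Npr1, and Ikbke (0.099), Maoa (0.12) and Gpm6b (0.13) to Npr2. Mecom (0.35), Serpinb6b (0.39) and Paqr8 (0.54) were nearest to Npr3. For the cyclase subunits these were Icam1 (0.36), Ifitm1 (0.37) and Cyyr1 (0.37) for Gucy1a1, and Ppp1r14a (0.44), Ppp1r16b (0.49) and Cox4i2 (0.55) for Gucy1b1. Neither subunit was among the 3 nearest genes of the other, and the log2 ratios of the subunits lay farthest apart in C3Tag (by 1.75). Adgre5 (0.24), Sgce (0.29) and Plac8 (0.31) were nearest to Pde3a, Spn (0.18), Ccdc141 (0.24) and Ly6a (0.27) to Pde5a, and AB124611 (0.20), Ddr2 (0.24) and Scarf1 (0.26) to Prkg1. Without AKR-named, 2 of the 3 genes remained for Npr1, Npr3 and Pde5a, 1 for Npr2, Gucy1a1 and Gucy1b1, and none for Pde3a and Prkg1.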

How the data were processed

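Per the labels, total RNA of PTs and Lung mets was isolated with Trizol and made into stranded, ribosomal RNA-depleted libraries, whereas the study's methods name TriPure with a column kit and mRNA libraries. The submitters' processing notes list STAR 2.7.8a, DESeq2 and mm39, while the study's methods name Partek Flow and give mm9 in 1 paragraph and mm10 in another. Each deposited group mean, treated as a signal, is the authors' least-squares mean of normalized counts over the samples of a tissue, from Gene Specific Analysis (driver models) or, by the authors, DESeq2 (PyMT-F1 crosses). The name of the normalization is not given in the sources used here. BALB and SEAGN use identifiers of the BALB/cJ annotation. The tables also hold the authors' own p-values, FDR, ratios and fold changes, none of which was used, and the Myc table, which gave only p-values and FDR, was left out.

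Log2 ratios of the means were computed without a pseudocount for every gene with both means, and genes were called at a 2-fold ratio. No test and no interval were computed, as no sample values or depths were analysed. Where older symbols were used they were matched to the current RefSeq symbol. The members, gene lists and rules were chosen with earlier results of these data known. All 8 members were named, and from each pathway list the genes with the highest and lowest median ratio (mean of at least 10 in at least 3 tables) and those past 2-fold in every table that held them. Nos2, Nos3, Nppb, Vasp, Cav1, Ddah2, Furin, Pde1a, Foxf1, Ednrb, Higd1b, Des, Rgs5, Pdgfra, Dcn, Csn2 and Acta1 are outside this rule and were named after their values were seen. Exons of 6 of the 8 members overlap those of another annotated gene, on the opposite strand for 5, and whether counting used strand is not given in the sources used here. Alternatives were a pseudocount of 1, centring on the median gene, a fold of 1.5, a mean of at least 10, and leaving out AKR-named. Computations were tested on simulated data. Python 3.11.15, numpy 2.4.6, pandas 2.3.3 and matplotlib 3.10.9 were used.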

Additional observations from a re-analysis of the deposited data

How the results depend on the processing

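A fold of 1.5 in place of 2 moved the count of higher members from 3 to 6 in Her2 (5.42% of all genes passed it) and from 3 to 6 in C3Tag (14.0%), and gave 5 in BALB (6.20%), 7 in SEAGN (7.11%) and 7 in AKR-named (13.6%). No member was lower by 1.5-fold in any table, beside 3.62% of all genes in Her2, 5.61% in C3Tag, 6.76% in BALB, 8.32% in SEAGN and 6.32% in AKR-named. Adding a pseudocount of 1 and centring on the median gene left all 40 log2 ratios of the members on the same side of 2-fold. Centring turned the sign of Npr2 (-0.013) and Prkg1 (-0.016) in BALB, both near 0 without it. The counts of members were the same under both and at a mean of at least 10. Leaving out AKR-named left 1 member past 2-fold in every table, and the share of all genes was not computed for that setting. Leaving out a replicate was not possible, and no paired analysis was possible because the tables hold group means only, although PT and Lung met are of the same animals. The spread between animals and the depth are unknown, so a fold near 2, such as that of Npr3 in Her2 (1.998) or Prkg1 in SEAGN (1.97), cannot be placed on either side with any stated error.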

Other observations

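Prkg2, the membrane-bound cyclic GMP-dependent kinase, was not named by the rule and was noticed after its values were seen. Its mean in C3Tag was 3605 in PT and 4358 in Lung met. In the other tables it was 23.0 and 20.1 (Her2), 7.89 and 5.82 (BALB), 9.68 and 6.72 (SEAGN), and 21.4 and 95.6 (AKR-named). As the tables were normalized separately, these levels were set side by side and not tested. Its ratio passed 2-fold only in AKR-named (4.46-fold), the table in which Prkg1 did so too.

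Pde6a, a cyclic GMP phosphodiesterase of photoreceptors, was likewise noticed after its values were seen. It was 3.19-fold higher in Lung mets of SEAGN, from means of 7.01 to 22.3, while in C3Tag the PT mean was 2.77 times the Lung met mean, from 30.9 to 11.1. Nos2, the inducible nitric oxide synthase, had higher means in the Lung mets of all 5 tables, by 1.40-fold in Her2 to 4.74-fold in AKR-named, and Cav1, an inhibitor of endothelial nitric oxide synthase in caveolae, by 1.498-fold in Her2 to 3.33-fold in AKR-named. Ddah2 had lower Lung met means in all 5, with log2 ratios of -0.58 to -0.095. None of these differences was tested, since no sample values were analysed.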
